A study of Homo sapiens with 12 samples.

Results

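The genes described here are those for which the effect of OGP46 could be compared between NB4 and Kasumi-1 cells, and the quantity described is the difference between the lines in that effect. A gene was included when its mean was at least 1 FPKM (fragments per kilobase of exon, scaled to the library total) over the 6 samples of NB4 and also over the 6 samples of Kasumi-1. This held for 8795 of 20003 genes. A further 718 genes reached 1 FPKM only in NB4 and 919 only in Kasumi-1, and they were not compared. At the limit, NAP1L5 was just inside with a lower line mean of 1.00009 FPKM and ZNF749 was just outside with 0.999863 FPKM.

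OGP46 is a kaurene diterpenoid derived from oridonin. NB4 cells are promyelocytic leukemia cells whose fusion gene is PML-RARα, while Kasumi-1 cells come from acute myeloid leukemia and express AML1-ETO. Each line was incubated with DMSO as control or with 1 μM OGP46 for 48 h, as the sample labels give it (a legend of the study gives a longer time), and mRNA was sequenced from 3 samples numbered 1 to 3 in each of the 4 groups. By the labels the groups of a line differ in OGP46 alone. Each line is a single established line, and no source used here says whether the numbered samples came from separate cultures. The p-values of the reported fit therefore measure only the spread of the OGP46 minus control changes between these sample numbers.

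Myeloid leukemia cells that carry these fusion proteins are blocked on the way from promyelocyte or myeloblast to granulocyte or monocyte. Cells at the promyelocyte stage make the serine proteases and myeloperoxidase of the primary granules, and they shut these genes down as they mature, while genes of adhesion, Fc receptor signalling, leukotriene synthesis and cytokine production come on. Cell-cycle exit, driven by CDK inhibitors, goes along with maturation, and electrophilic diterpenoids are known to engage stress pathways such as those of NRF2 and ATF4.

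The value compared was log2(FPKM + 0.1), centred on the median of each sample. The change in a pair is the OGP46 sample minus the control sample with the same number, and the difference of responses is the mean change of the 3 NB4 pairs minus that of the 3 Kasumi-1 pairs. A positive difference therefore means that a gene went up more, or down less, in NB4. The difference was tested in limma as an interaction of cell line and treatment with the sample number as a block, and a gene was called at a Benjamini-Hochberg adjusted p below 0.05 over all 8795 genes. All differences and changes below are on this log2 scale, which understates the change of genes near 0.1 FPKM.

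The Kasumi-1 markers were where the labels place them apart from a small signal in NB4, and the NB4 markers were so only in part. The summed FPKM of 5 Kasumi-1 markers (RUNX1T1, POU4F1, TRH, CD34 and KIT) was 263 to 299 in Kasumi-1 controls and 237 to 272 with OGP46. In NB4 the same sum was 0.563, 1.498 and 3.60 in controls 1, 2 and 3 and 0.626 to 1.298 with OGP46, so NB4 control 3 held 1.29% of the Kasumi-1 control sum and the other 5 NB4 samples 0.202% to 0.538%. Of 4 genes listed as NB4 markers, DEFB1 and AQP5 were listed at 0 in every Kasumi-1 sample, STAB1 was below 1 FPKM there, and HGF was as high in Kasumi-1 as in NB4. AQP5 was also low in NB4, at 0.334 to 0.470 FPKM in controls and 0.0539 to 0.115 FPKM with OGP46. Among 19 erythroid, lymphoid and stromal genes, CD3D was at 13.5 to 20.4 FPKM in NB4 controls and 22.5 to 34.6 FPKM with OGP46, CD79A was the only other that passed 1 FPKM in either line, and 10 to 13 of the 19 were listed at 0 in all samples of a group. In such bulk samples, fewer cells that express a gene and less RNA of it per cell cannot be told apart.

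The change with OGP46 differed between the lines for 246 of the 8795 genes, which is 2.8% of those tested. For 177 genes (2.01%) the change was higher in NB4, led by the leukotriene gene ALOX5AP, the kinase gene PIM1, the cytokine gene IL1B and the CDK inhibitor gene CDKN1A. For 69 genes (0.785%) it was lower in NB4, led by the granule protease genes CTSG and PRTN3. The called differences ran from 0.28 to 1.58 among the higher and from -1.30 to -0.29 among the lower genes. A difference of at least 0.58 in size, which is a 1.49-fold difference between the responses, was reached by 61 and 15 of them. Over all genes tested, the differences had a median of 0.008 and their 5th and 95th percentiles were -0.25 and 0.31.

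The called genes were mostly genes that moved in NB4. Among the 177 higher genes the median change was 0.40 in NB4 and -0.10 in Kasumi-1, and among the 69 lower genes it was -0.43 and 0.02. Taken on its own in the same fit, the NB4 change passed the test upward for 146 of the 177 (10.3% of all genes did) and the Kasumi-1 change passed downward for 42 of them (6.79% of all), while 12 passed in opposite directions in both lines. Of the 69 lower genes, 59 passed downward in NB4 (13.0% of all genes did), 14 passed upward in Kasumi-1 (2.58% of all) and 4 passed in opposite directions. Of the 177 genes, 121 had a change above 0 in NB4 and below 0 in Kasumi-1, against 1525 of all 8795 genes. The other way around were 33 of the 69, against 1212 of all. Calling on the difference favours such a split of signs. It also favours the single-line passes counted above, so their excess over the shares of all genes is partly built in. The sign of each line's change rests on the centring. All 3 NB4 pair changes lay above all 3 of Kasumi-1 for 1087 genes (12.4% of those tested) and below them for 779 (8.86%), and the 246 called genes were all among these. A rank test of single genes could not pass here, since an exact permutation of 3 pairs against 3 goes no lower than p = 0.1.

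**Figure D1:**
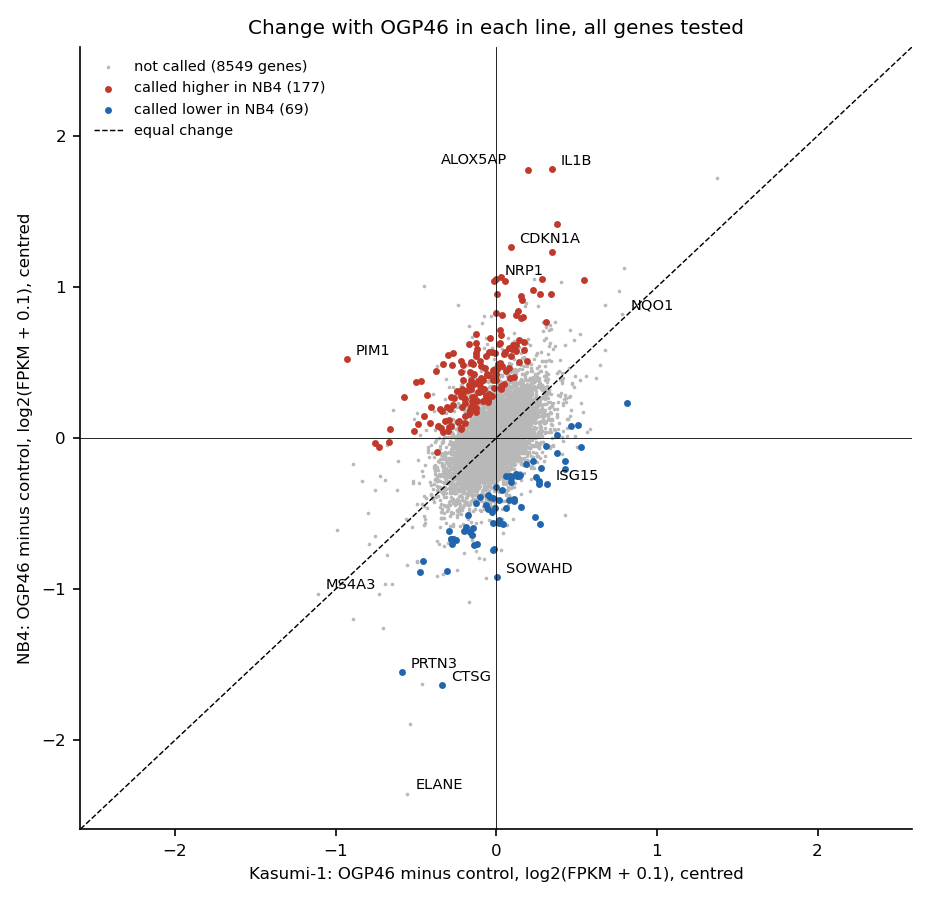
Change with OGP46 in Kasumi-1 (x axis) against NB4 (y axis) for the 8795 genes tested, each a mean of 3 same-numbered pairs in centred log2(FPKM + 0.1). Points on the dashed line changed equally in both lines. The 177 genes called higher in NB4 (red) lie above the line and the 69 called lower (blue) below it, while the remaining 8549 (grey), ELANE among them, were not called.

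The calls rest on the pairing of samples by number, and no source used here states that same-numbered samples belong together. With no replicate block in the fit, limma called 0 genes, 544 (6.19%) had an unadjusted p below 0.05, and the smallest adjusted p was 0.168. Of the 246 genes, 167 were among those 544, and all 246 had the same sign. With the block as a random term, at an estimated correlation of 0.469 between samples of a number, 81 higher and 19 lower genes were called. Leaving out 1 pair at a time, 105 to 238 higher and 35 to 74 lower genes were called without an NB4 pair, and 50 to 64 and 10 to 19 without a Kasumi-1 pair. In all 6 of these fits, 38 of the higher and 6 of the lower genes stayed called, and all 246 kept their sign. Without centring, the counts were 340 higher and 16 lower, with the median difference of all genes at 0.13, and under TPM scaling they were 130 higher and 80 lower.

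**Figure D2:**
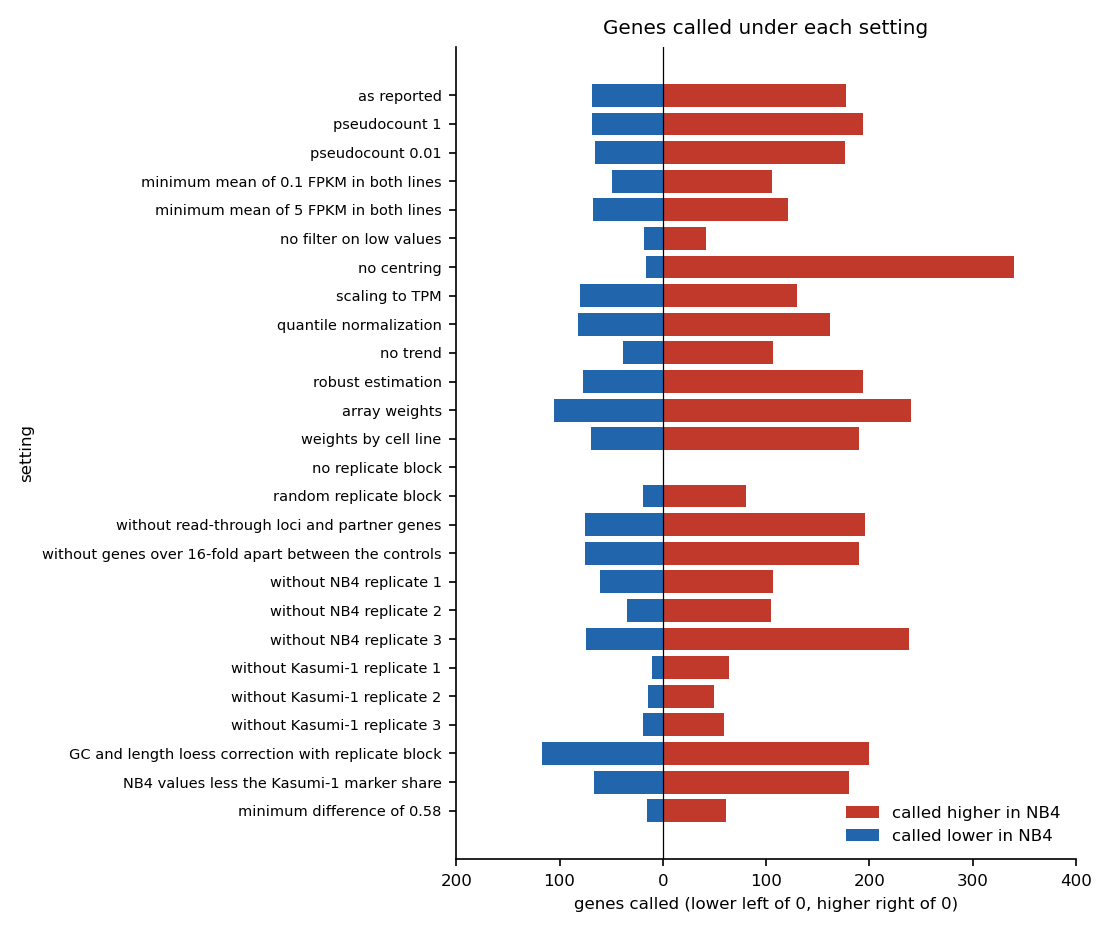
Number of genes called lower in NB4 (blue, to the left of 0) and higher in NB4 (red, to the right) under each setting of the analysis, with the reported setting at the top. The fit with no replicate block called 0 genes and the fit without centring 340 higher and 16 lower.

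Genes of the primary granules held the lowest called differences. Of 20 listed genes, 16 were tested and 5 were called lower in NB4, which is 31.2% of them against 0.785% of all genes, and none was called higher. These were the serine protease genes CTSG (cathepsin G) and PRTN3 (proteinase 3), the myeloperoxidase gene MPO, the azurocidin gene AZU1 and the protease gene PRSS57, the last named after its values were seen. The median difference of the list was -0.28. This list and those below were chosen with earlier results of these data known, so their shares are not independent of the data. Fewer were called without some pairs, namely 3 without NB4 pair 2, 2 without Kasumi-1 pair 1 and 3 without Kasumi-1 pair 2 or 3. With the block as a random term none of the 16 was called, and the adjusted p was 0.266 for CTSG and 0.262 for PRTN3.

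CTSG stood at 18.2, 86.3 and 29.5 FPKM in NB4 controls 1, 2 and 3 and at 5.82, 40.7 and 9.45 FPKM with OGP46. In Kasumi-1 it was at 111, 144 and 79.8 FPKM in the controls and 100.4, 105 and 69.7 FPKM with OGP46. The NB4 levels fell in every pair and to less than the lowest control in samples 1 and 3, whereas in Kasumi-1 the control and OGP46 ranges overlapped. The pair changes were -1.70, -1.27 and -1.93 in NB4 and -0.24, -0.44 and -0.32 in Kasumi-1, with no overlap. Their difference was -1.30 ± 0.13 (SE, n = 3 pairs per line, adjusted p = 0.00113 by limma), so the fold decrease was 2.46 times larger in NB4, and it ranged from -1.48 to -1.15 when single pairs were left out.

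PRTN3 followed the same order at higher levels. NB4 controls held 146, 449 and 259 FPKM and NB4 OGP46 samples 44.3, 212 and 106 FPKM, and Kasumi-1 controls held 2941, 3677 and 2523 FPKM against 2151, 2412 and 1792 FPKM with OGP46. The gene fell in all 6 pairs, and each NB4 pair fell further than any Kasumi-1 pair. The difference was -0.97 ± 0.11 (adjusted p = 0.00256), and PRTN3 and CTSG were both called in each of the 6 fits without a pair, though not with the random block.

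The other granule genes differed less. MPO, at 1509.6 to 3323 FPKM in NB4 and 4184 to 5191 FPKM in Kasumi-1, had a change of -0.67 in NB4 and -0.25 in Kasumi-1 and a difference of -0.42 ± 0.08 (adjusted p = 0.0165). AZU1 had a difference of -0.36 ± 0.07 (adjusted p = 0.0221) and PRSS57 one of -0.32 ± 0.07 (adjusted p = 0.0468), and both fell in each line on its own. Not all members were like these. The ribonuclease gene RNASE2 had a difference of 0.07 with an interval of -0.12 to 0.25, and RNASE3 had 0.38 with -0.03 to 0.79, neither called, and both were named after their values were seen.

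ELANE, the neutrophil elastase gene, had the lowest difference of all 8795 genes, -1.80 ± 0.54, and was not called (adjusted p = 0.121). It stood at 0.504, 3.30 and 14.5 FPKM in NB4 controls and 0.321, 0.430 and 1.39 FPKM with OGP46, against 1445, 1717 and 1352 FPKM in Kasumi-1 controls and 1035, 1131 and 1036 FPKM with OGP46. NB4 control 3, the highest of these NB4 values, was also the NB4 sample with the most Kasumi-1 marker signal. When the marker share of the mean Kasumi-1 control level was taken off each NB4 sample, a setting chosen after seeing the data, all 6 NB4 values of ELANE came to 0, so that its difference of 0.36 (adjusted p = 0.0396) then comes from the Kasumi-1 change and the centring of the NB4 samples alone. Under the same subtraction CTSG stayed at -1.32 (adjusted p = 0.00112), PRTN3 at -1.01 (adjusted p = 0.00454) and MPO at -0.42 (adjusted p = 0.0165), while AZU1 came to -0.31 (adjusted p = 0.112). The markers summed for this share gave unlike shares. POU4F1 was at 0.408 to 0.788 FPKM in NB4 controls against 6.91 to 7.46 FPKM in Kasumi-1 controls. RUNX1T1 was at 0 to 0.0762 FPKM against 8.38 to 8.73 FPKM. Whether the subtraction takes off too much was not tested.

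**Figure D3:**
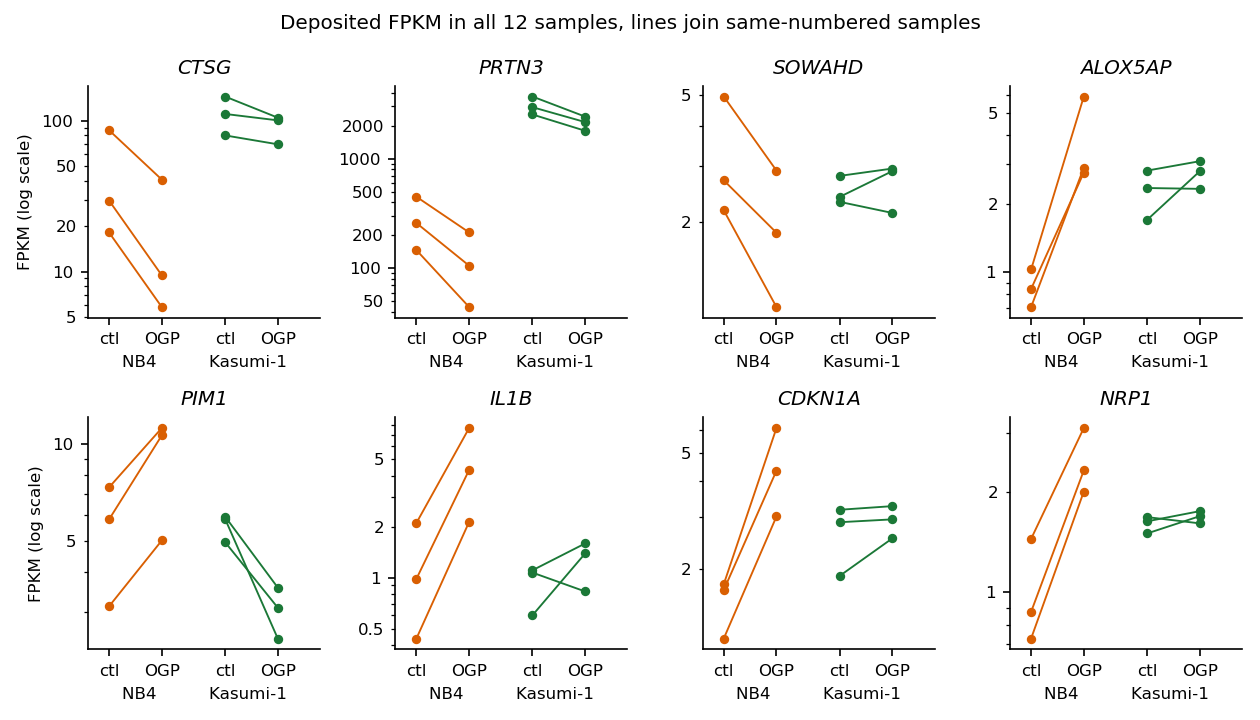
Deposited FPKM (y axes, log scale) of 8 genes in all 12 samples, with control (ctl) and OGP46 (OGP) samples of the same number joined, NB4 in orange and Kasumi-1 in green. CTSG, PRTN3 and SOWAHD fell in each NB4 pair, and ALOX5AP, PIM1, IL1B, CDKN1A and NRP1 rose in each NB4 pair, while PIM1 fell in each Kasumi-1 pair.

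Promoter sequences of 5 of the genes are shown because granule and cytokine genes of myeloid cells are textbook targets of C/EBP factors, which act through a TTGC half-site. ZFP36L1 is neither a granule nor a cytokine gene, and the 5 are picked examples that do not stand for the called genes as a set. Each is the window of 250 bases before the RefSeq start on GRCh38.p14, in the direction of the gene, with matches to TTGCNNAA on either strand in capitals. They are PRTN3 (chr19:840749-840998, plus strand), AZU1 (chr19:827587-827836, plus strand) and CTSG (chr14:24576251-24576500, minus strand) of the lower genes and IL1B (chr2:112836780-112837029, minus strand) and ZFP36L1 (chr14:68796244-68796493, minus strand) of the higher genes.
PRTN3: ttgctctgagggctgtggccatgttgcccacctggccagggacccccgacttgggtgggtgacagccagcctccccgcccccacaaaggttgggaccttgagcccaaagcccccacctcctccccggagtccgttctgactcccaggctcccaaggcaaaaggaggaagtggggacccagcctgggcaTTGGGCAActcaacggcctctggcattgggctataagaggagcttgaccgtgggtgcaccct
AZU1: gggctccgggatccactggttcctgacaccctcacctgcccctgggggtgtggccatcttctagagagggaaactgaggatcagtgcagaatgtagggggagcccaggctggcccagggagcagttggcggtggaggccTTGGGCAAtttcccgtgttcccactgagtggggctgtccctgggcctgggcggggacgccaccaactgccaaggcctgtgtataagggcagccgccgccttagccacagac
CTSG: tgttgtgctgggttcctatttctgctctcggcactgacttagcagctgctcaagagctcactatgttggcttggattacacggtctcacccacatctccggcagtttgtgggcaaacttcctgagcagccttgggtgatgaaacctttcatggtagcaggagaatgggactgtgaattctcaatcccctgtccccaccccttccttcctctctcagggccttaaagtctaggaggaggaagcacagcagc
IL1B: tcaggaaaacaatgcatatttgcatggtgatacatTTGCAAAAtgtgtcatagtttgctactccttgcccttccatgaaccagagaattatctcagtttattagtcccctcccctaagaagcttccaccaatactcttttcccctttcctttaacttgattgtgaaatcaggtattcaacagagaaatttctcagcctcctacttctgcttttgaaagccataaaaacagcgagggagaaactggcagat
ZFP36L1: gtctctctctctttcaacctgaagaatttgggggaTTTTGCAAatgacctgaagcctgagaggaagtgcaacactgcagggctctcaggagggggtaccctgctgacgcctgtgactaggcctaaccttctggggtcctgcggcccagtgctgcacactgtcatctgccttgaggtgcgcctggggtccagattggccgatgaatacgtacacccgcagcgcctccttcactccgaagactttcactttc
The match began 62 bases before the start in PRTN3, 111 bases before it in AZU1 and 215 bases before it in both IL1B and ZFP36L1, and the CTSG window held none. Windows were matched by symbol for 56 of the lower, 130 of the higher and 7170 of all genes tested. TTGCNNAA was in 16.1% of the lower, 9.23% of the higher and 5.86% of all windows. The AP-1 motif TGANTCA was in 3.57%, 4.62% and 3.19%, the antioxidant motif TGACNNNGC in 3.57%, 11.5% and 12.5%, and the NF-kB motif in 0%, 3.08% and 1.98%, in the same order. The CRE motif TGACGTCA was in 0%, 1.54% and 3.31%, and the E-box CACGTG in 8.93%, 7.69% and 9.83%. A match is a description of letters and does not show that a factor binds.

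Outside the granule list, the largest called differences below 0 belonged to genes of varied function. SOWAHD, an ankyrin repeat gene, stood at 2.18, 4.94 and 2.71 FPKM in NB4 controls and 1.09, 2.90 and 1.86 FPKM with OGP46, and at 2.40, 2.79 and 2.32 FPKM and 2.89, 2.95 and 2.14 FPKM in Kasumi-1. It fell in each NB4 pair and went either way in Kasumi-1, and its difference was -0.93 ± 0.13 (adjusted p = 0.00708). SESN3, which encodes a sestrin that restrains mTORC1 signalling, stood at 5.26, 12.9 and 5.62 FPKM in NB4 controls and 3.08, 8.63 and 4.50 FPKM with OGP46, and stayed between 17.5 and 21.2 FPKM in all 6 Kasumi-1 samples. Its difference was -0.72 ± 0.08 (adjusted p = 0.00256). MMACHC, needed for the processing of vitamin B12, fell in NB4 by 0.74 and changed by -0.02 in Kasumi-1, with a difference of -0.72 ± 0.13 (adjusted p = 0.0156).

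In PHYH, LACTB2, LOC339862 and TARP the Kasumi-1 change lay above 0. PHYH, a peroxisomal enzyme of fatty acid oxidation, rose in Kasumi-1 from 6.68, 7.58 and 6.80 FPKM to 10.4, 9.86 and 9.50 FPKM and changed from 1.33, 1.07 and 1.56 FPKM to 1.08, 1.16 and 1.70 FPKM in NB4, with a difference of -0.63 ± 0.11 (adjusted p = 0.0164). LACTB2, a mitochondrial ribonuclease gene, had a difference of -0.61 ± 0.11 (adjusted p = 0.0190). LOC339862, an uncharacterised locus, had -0.76 ± 0.14 (adjusted p = 0.0164). TARP, which overlaps the T cell receptor gamma genes so that its reads cannot be assigned to it alone, had -0.85 ± 0.19 (adjusted p = 0.0405). TARP was called in 1 of the 6 fits without a pair, whereas SOWAHD and SESN3 were called in all 6.

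The largest of the called differences above 0 was that of ALOX5AP, followed by PIM1, IL1B and CDKN1A. ALOX5AP, the 5-lipoxygenase activating protein needed for leukotriene synthesis, stood at 1.03, 0.704 and 0.845 FPKM in NB4 controls and at 5.90, 2.88 and 2.74 FPKM with OGP46. In Kasumi-1 it stood at 1.70, 2.34 and 2.79 FPKM and 2.78, 2.32 and 3.07 FPKM. All NB4 OGP46 samples were above all NB4 controls, and the Kasumi-1 groups overlapped. The difference was 1.58 ± 0.24 (adjusted p = 0.00867), which means that the fold increase was 2.98 times larger in NB4, and it ranged from 1.30 to 1.82 when pairs were left out.

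IL1B, the interleukin-1β gene, stood at 2.10, 0.436 and 0.984 FPKM in NB4 controls and 7.67, 2.14 and 4.33 FPKM with OGP46, and at 0.599, 1.07 and 1.11 FPKM and 1.39, 0.829 and 1.59 FPKM in Kasumi-1. It rose in every NB4 pair, and in Kasumi-1 pair 2 it went down. The difference was 1.43 ± 0.26 (adjusted p = 0.0178), and the call was lost in 2 of the 6 fits without a pair. ICAM1, an adhesion molecule induced by NF-kB, stood at 18.1, 2.44 and 19.2 FPKM and 38.3, 8.35 and 35.1 FPKM in NB4 and at 3.33, 4.17 and 4.51 FPKM and 4.35, 4.04 and 4.65 FPKM in Kasumi-1. NB4 sample 2 started lowest and rose most, and the difference was 0.98 ± 0.20 (adjusted p = 0.0258). On the list of NF-kB feedback, cytokine and chemokine genes, 3 of 16 tested genes were called higher (18.8% against 2.01% of all) and none lower, the third being NFKB2, an NF-kB subunit gene, with 0.71 ± 0.13 (adjusted p = 0.0184). The median of the list was 0.15, and 1 gene stayed called without NB4 pair 2 or any Kasumi-1 pair, 2 without NB4 pair 1 and 4 without NB4 pair 3. None of the 16 was called with the random block, where IL1B had an adjusted p of 0.140 and ICAM1 one of 0.467. CXCL8, the interleukin-8 gene, changed by 1.72 in NB4 and 1.37 in Kasumi-1 and had a difference of 0.35 with an interval of -0.13 to 0.83 (adjusted p = 0.487).

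Called differences of 0.95 to 1.05 were found for NRP1, CD300A and MMP14, which encode proteins of the cell surface. NRP1, a co-receptor of semaphorins and VEGF, stood at 1.45, 0.726 and 0.873 FPKM in NB4 controls and 3.11, 2.01 and 2.32 FPKM with OGP46, and between 1.498 and 1.75 FPKM in all 6 Kasumi-1 samples. CD300A, an inhibitory receptor of myeloid cells, stood at 1.46, 1.75 and 1.71 FPKM in NB4 controls and 3.67, 4.22 and 3.96 FPKM with OGP46, and at 0.691, 1.01 and 1.29 FPKM and 0.764, 0.856 and 1.54 FPKM in Kasumi-1. MMP14, a membrane-bound matrix metalloproteinase gene, stood at 32.4, 22.3 and 27.3 FPKM and 71.6, 51.5 and 57.6 FPKM in NB4, and between 6.99 and 8.46 FPKM in Kasumi-1. For each of these, all NB4 OGP46 samples were above all NB4 controls and the Kasumi-1 groups overlapped. The differences were 1.05 ± 0.14 (adjusted p = 0.00637) for NRP1, 1.05 ± 0.15 (adjusted p = 0.00678) for CD300A and 0.95 ± 0.09 (adjusted p = 0.00101) for MMP14, and all 3 genes stayed called in each fit without a pair.

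**Figure D4:**
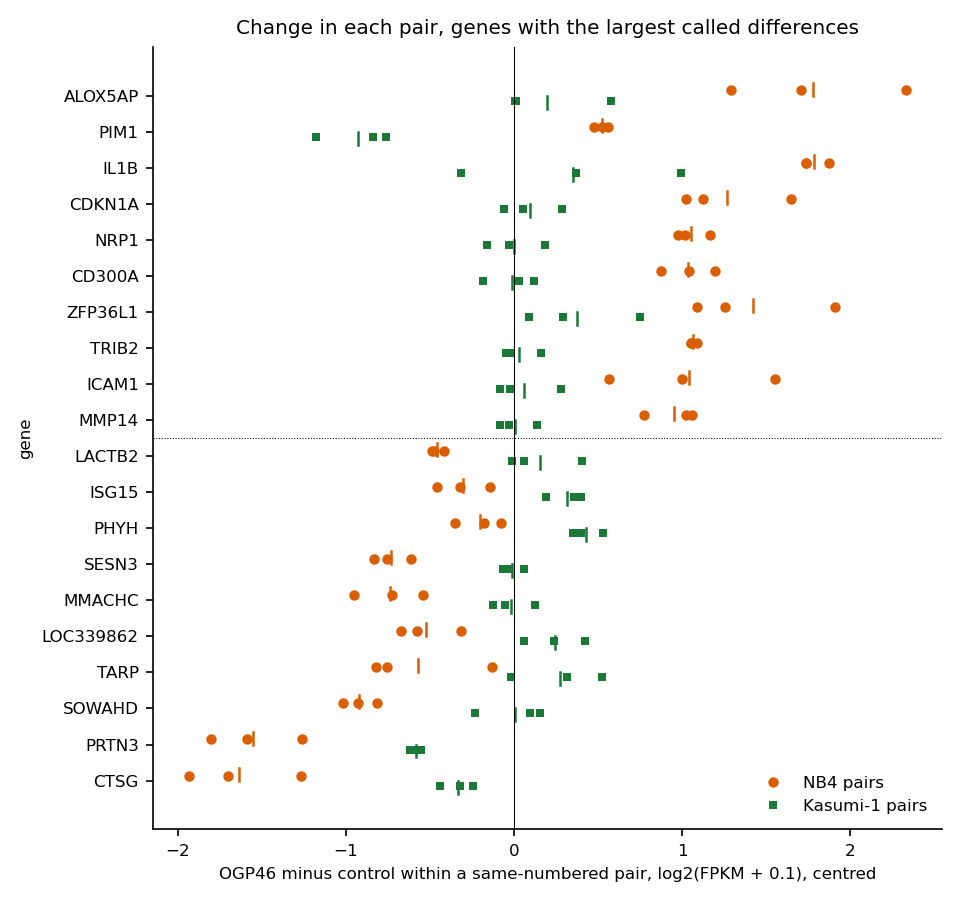
Change in each same-numbered pair (x axis, OGP46 minus control in centred log2(FPKM + 0.1)) for the 10 genes with the lowest and the 10 with the highest called difference, read-through loci left out. Orange points are the 3 NB4 pairs, green squares the 3 Kasumi-1 pairs and vertical ticks their means. The genes were picked among those whose pair changes do not overlap between the lines.

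The list of genes that respond early to growth signals or feed back on MAPK signalling had 28 tested members. The change was called higher in NB4 for 7 of them (25.0% against 2.01%) and lower for none, with a median difference of 0.25. PIM1, a serine/threonine kinase that favours survival, had the largest such difference and moved in opposite directions in the lines. Its levels were 7.32, 3.13 and 5.83 FPKM in NB4 controls and 11.2, 5.01 and 10.6 FPKM with OGP46, and 4.95, 5.85 and 5.95 FPKM in Kasumi-1 controls and 3.10, 2.49 and 3.58 FPKM with OGP46. Each NB4 pair rose and each Kasumi-1 pair fell, with pair changes of 0.53, 0.48 and 0.56 and -0.76, -1.18 and -0.84. The difference was 1.45 ± 0.11, with an adjusted p of 0.000257, the smallest of all genes and shared with DUSP6.

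DUSP6, a phosphatase that switches off ERK, stood at 41.9, 25.7 and 33.9 FPKM in NB4 controls and 89.0, 56.0 and 76.4 FPKM with OGP46, and at 32.6, 38.3 and 39.3 FPKM and 39.5, 42.6 and 46.0 FPKM in Kasumi-1. The NB4 groups did not overlap and the OGP46 level was about the same multiple of its control in each NB4 pair, with pair changes of 1.01, 0.94 and 0.87 against 0.18, 0.17 and 0.10. Its difference was 0.79 ± 0.06. ZFP36L1, which encodes an RNA-binding protein that speeds mRNA decay, had 1.04 ± 0.24 (adjusted p = 0.0425) at levels of 0.347 to 3.26 FPKM in NB4, and it was called in 1 of 6 fits without a pair. ID2, an inhibitor of helix-loop-helix factors, had 0.75 ± 0.14 (adjusted p = 0.0185) and was also called in 1 of these 6. The other called members, named after their values were seen, were the mRNA decay gene ZFP36 at 0.63, the phosphatase gene DUSP4 at 0.61 and the transcription factor gene KLF6 at 0.61. The list held 4 calls without NB4 pair 1 or 2, 10 without NB4 pair 3, and 3, 3 and 2 without Kasumi-1 pair 1, 2 and 3. It held 2 with the random block.

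The changes of the CDK inhibitor genes CDKN1A and CDKN1C were higher in NB4, while none of the genes of the cell cycle itself was called. CDKN1A, which encodes p21, stood at 1.77, 1.69 and 1.15 FPKM in NB4 controls and 6.07, 4.34 and 3.02 FPKM with OGP46, and at 3.18, 2.89 and 1.89 FPKM and 3.28, 2.95 and 2.54 FPKM in Kasumi-1. The NB4 groups did not overlap, and the Kasumi-1 groups did. The difference was 1.17 ± 0.17 (adjusted p = 0.00696), and the gene was called in all 6 fits without a pair. CDKN1C, which encodes p57, had a change of 0.44 in NB4 and -0.37 in Kasumi-1 and a difference of 0.82 ± 0.17 (adjusted p = 0.0328). GADD45A, a growth arrest and DNA damage gene, had 0.57 ± 0.09 (adjusted p = 0.00867) and TNFRSF10B, a TRAIL receptor gene, 0.60 ± 0.12 (adjusted p = 0.0269). These 4 were the called members among 21 tested genes of D-type cyclins, CDK inhibitors and p53 targets (19.0% against 2.01% of all), whose median was 0.02 and became -0.007 under TPM scaling and -0.006 under quantile normalization. Without NB4 pair 2 or any 1 Kasumi-1 pair, 2 were called higher, and without Kasumi-1 pair 3, 1 was also called lower. With the random block 1 of the 21 was called. The D-type cyclin gene CCND2 had a difference of -0.13 with an interval of -0.28 to 0.02.

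All 60 tested genes of the cell cycle and DNA replication had a 95% interval of the difference that lay between -0.58 and 0.58, which held for 91.3% of all genes. None was called by limma, 10 had an unadjusted p below 0.05, and the differences of the 60 ran from -0.23 to 0.23 with a median of 0.06. The share of all genes at this unadjusted p in the same fit is not given, here or for the lists below. The share given above is from the fit with no replicate block and cannot stand in for it. The members with the smallest p were E2F8, a repressor of the E2F family, at 0.23 (adjusted p = 0.222), and CCNA2, which encodes cyclin A2, at -0.17 (adjusted p = 0.197).

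Genes of the ATF4 program, through which cells respond to amino acid shortage and other stress, were called higher in NB4 in 7 of 30 tested (23.3% against 2.01% of all) and lower in none. The median difference was 0.23, and 26 of the 30 differences were above 0, against 4621 of all 8795 genes. SESN2, a stress-induced sestrin gene, stood at 4.71, 2.54 and 2.71 FPKM in NB4 controls and 8.06, 7.28 and 4.79 FPKM with OGP46, and between 3.09 and 4.19 FPKM in Kasumi-1, with a difference of 0.83 ± 0.18 (adjusted p = 0.0388). DDIT4, which encodes an inhibitor of mTORC1, stood at 16.7, 11.6 and 10.9 FPKM and 37.9, 32.6 and 22.7 FPKM in NB4 and at 7.06, 9.69 and 4.33 FPKM and 10.8, 9.87 and 5.82 FPKM in Kasumi-1. It rose in NB4 to above all controls, and its difference was 0.77 ± 0.14 (adjusted p = 0.0180). VLDLR, a lipoprotein receptor gene, had 0.81 ± 0.16 (adjusted p = 0.0258) and ASNS, which encodes asparagine synthetase, 0.66 ± 0.11 (adjusted p = 0.0143).

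The other called members of the ATF4 list were named after their values were seen. They were the amino acid transporter gene SLC7A5 at 0.52, the tryptophanyl-tRNA synthetase gene WARS at 0.55 and the serine synthesis gene PSAT1 at 0.40. For SLC7A5 the Kasumi-1 change of -0.34 was the one that passed on its own, whereas for ASNS and PSAT1 it was the NB4 change. The number of calls on this list moved most with the pairs. It was 14 without NB4 pair 3, 3 without NB4 pair 2, 1 without Kasumi-1 pair 1 and 0 without Kasumi-1 pair 2 or 3. It was 1 with the random block. Among 21 tested genes of the unfolded protein response of the endoplasmic reticulum, none was called, 3 had an unadjusted p below 0.05 and all 21 intervals lay between -0.58 and 0.58, with EDEM1 at 0.24 (adjusted p = 0.0874) and DNAJB11 at 0.17 (adjusted p = 0.299) nearest to a call.

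**Figure D5:**
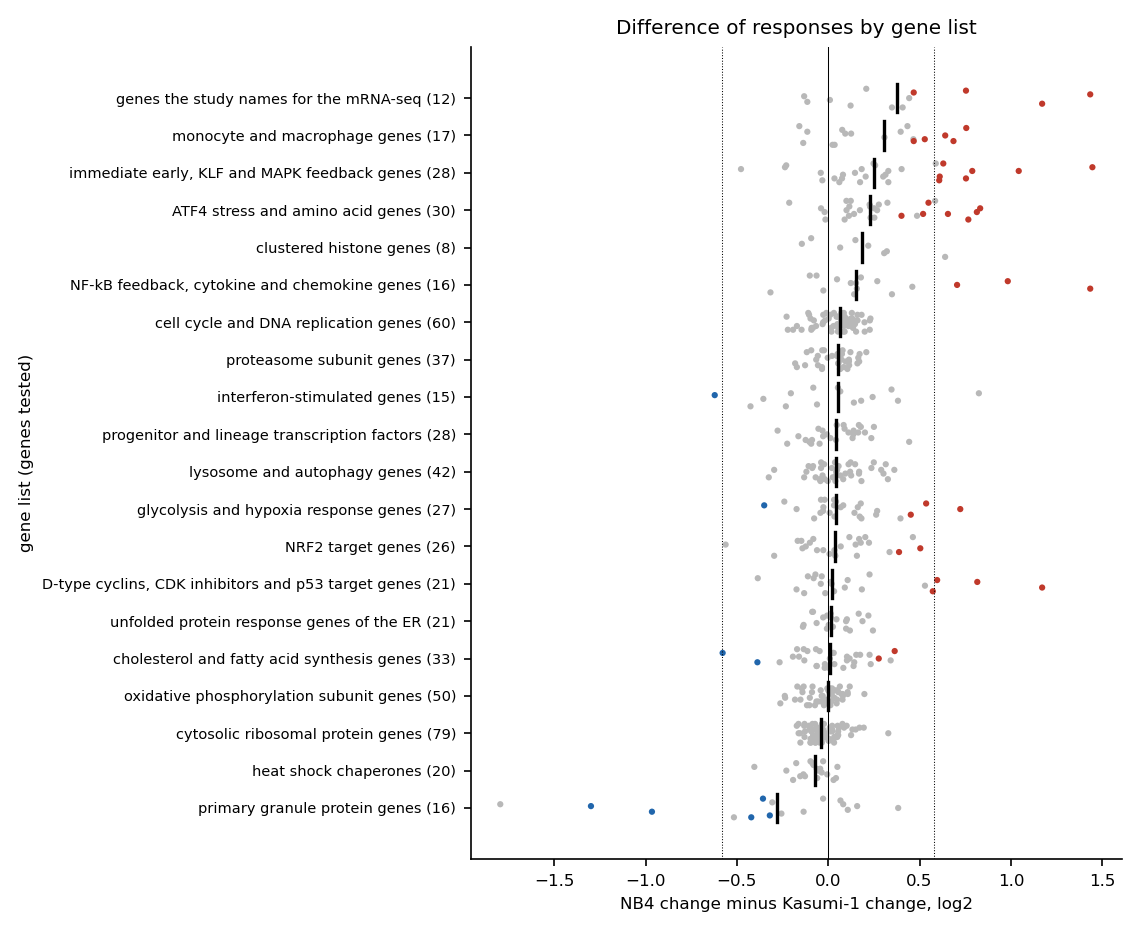
Difference of responses (x axis, log2) of every tested member of the gene lists described, with the number tested in brackets. Red points were called higher and blue points lower in NB4, black bars are list medians and dotted lines mark -0.58 and 0.58. The monocyte, immediate early and ATF4 lists have medians of 0.31, 0.25 and 0.23 and the primary granule list one of -0.28.

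Genes of monocytes and macrophages were called higher in NB4 in 5 of 17 tested (29.4% against 2.01% of all) and lower in none, with a median of 0.31. FCER1G, the signalling chain of Fc receptors, stood at 22.5, 10.8 and 16.6 FPKM in NB4 controls and 46.6, 23.3 and 37.2 FPKM with OGP46, and at 4.77, 5.30 and 3.85 FPKM and 6.02, 5.61 and 4.68 FPKM in Kasumi-1. It rose in each NB4 pair, though sample 2 with OGP46 was hardly above control 1, and the difference was 0.76 ± 0.07 (adjusted p = 0.00104). S100A9, a calprotectin subunit gene, stood at 4.41, 10.7 and 5.60 FPKM and 9.92, 20.5 and 14.3 FPKM in NB4, where the groups overlapped, and had a difference of 0.69 ± 0.15 (adjusted p = 0.0388).

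For 2 of the monocyte genes the difference came with a fall in Kasumi-1. AIF1, an actin-binding protein of macrophages, stood between 95.9 and 122 FPKM in all NB4 samples, and in Kasumi-1 at 10.8, 13.9 and 13.1 FPKM in controls and 8.03, 7.41 and 9.40 FPKM with OGP46, with no overlap. Its difference was 0.64 ± 0.10 (adjusted p = 0.00867). ITGB2, the β2 integrin chain, changed by 0.27 in NB4 and -0.26 in Kasumi-1, and both passed on their own, with a difference of 0.53 ± 0.09 (adjusted p = 0.0119). ANPEP, the surface aminopeptidase CD13, had 0.47 ± 0.08 (adjusted p = 0.0120). The list held 2 calls without Kasumi-1 pair 2, 4 or 5 without any other pair, and 1 with the random block.

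Genes with opposite changes were picked by the size of the smaller change. Beside PIM1 and CDKN1C they were RAB7B, PTGER2 and CARMIL2, whose change was higher in NB4, and ISG15, whose change was lower there. RAB7B, a small GTPase of late endosomes, stood at 4.14, 1.38 and 5.58 FPKM in NB4 controls and 6.50, 1.87 and 8.70 FPKM with OGP46, and at 9.27, 8.16 and 6.97 FPKM and 6.68, 6.60 and 4.78 FPKM in Kasumi-1. NB4 sample 2 was low in both groups, each NB4 pair rose and each Kasumi-1 pair fell, and the difference was 0.87 ± 0.12 (adjusted p = 0.00668). PTGER2, the EP2 receptor of prostaglandin E2, changed by 0.38 and -0.47, with a difference of 0.85 ± 0.14 (adjusted p = 0.0119). CARMIL2, a regulator of actin capping, changed by 0.49 and -0.33, with 0.82 ± 0.13 (adjusted p = 0.00969).

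ISG15, a ubiquitin-like protein induced by interferon, went from 15.9, 13.7 and 15.3 FPKM to 13.4, 14.1 and 13.6 FPKM in NB4, where the groups overlapped, and from 1.84, 1.95 and 2.03 FPKM to 2.56, 2.57 and 2.54 FPKM in Kasumi-1, where they did not. The difference was -0.62 ± 0.11 (adjusted p = 0.0120). It was the only called gene among 15 tested interferon-stimulated genes (6.67% against 0.785% of all), whose median was 0.05 and became -0.002 without NB4 pair 1. Without Kasumi-1 pair 1 no gene of this list was called lower and 1 was called higher, and without Kasumi-1 pair 2 none was called. Whether the direction of a single line's change lies above or below 0 rests on the centring, while the difference between lines kept its sign under each scaling tried for every called gene named here.

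Of 26 tested targets of NRF2, the factor that answers electrophiles and oxidants, 2 were called higher (7.69% against 2.01% of all) and none lower, with a median of 0.04. None was called without any 1 Kasumi-1 pair, 1 was called higher without NB4 pair 2 or with the random block, and 2 were called higher and 2 lower without NB4 pair 1. FTH1, which encodes the ferritin heavy chain and has many processed copies that can share its reads, changed by 1.05 in NB4 and 0.54 in Kasumi-1, with a difference of 0.50 ± 0.10 (adjusted p = 0.0210). Its partner FTL, named after its values were seen, had -0.15 with an interval of -0.32 to 0.02. GSR, which encodes glutathione reductase, had 0.39 ± 0.07 (adjusted p = 0.0178). NQO1, a classical NRF2 target, rose in all 6 pairs and had a difference of 0.04 with an interval of -0.17 to 0.25.

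Calls on the metabolic lists went both ways. Of 33 tested genes of cholesterol and fatty acid synthesis, 2 were called lower (6.06% against 0.785% of all), namely SREBF1, the gene of the lipogenic factor SREBP-1, with -0.58 ± 0.09 (adjusted p = 0.0106), and SCD, the stearoyl-CoA desaturase gene, with -0.39 ± 0.08 (adjusted p = 0.0357). A further 2 were called higher (6.06% against 2.01%), the desaturase gene FADS1 with 0.36 (adjusted p = 0.0433) and the sterol isomerase gene EBP with 0.28 (adjusted p = 0.0388). No gene of this list was called without Kasumi-1 pair 2 or with the random block, and without another pair 0 or 1 were called higher and 1 to 3 lower. Of 27 tested genes of glycolysis and the hypoxia response, 3 were called higher (11.1% against 2.01%), namely the aldolase gene ALDOC with 0.72 ± 0.13 (adjusted p = 0.0158), the angiogenic factor gene VEGFA with 0.54 (adjusted p = 0.0221) and the glucose transporter gene SLC2A3 with 0.45 (adjusted p = 0.0260). The hexokinase gene HK2 was called lower (3.70% against 0.785%), with -0.35 (adjusted p = 0.0388). None of the 27 was called without Kasumi-1 pair 1 or 2 or with the random block, 1 was called higher without Kasumi-1 pair 3, and 2 or 3 higher and 0 or 1 lower without an NB4 pair. ALDOC changed by -0.75 in Kasumi-1 and -0.03 in NB4.

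None of the tested genes was called by limma on 7 further lists. At an unadjusted p below 0.05 there were 5 of 50 oxidative phosphorylation, 7 of 37 proteasome, 2 of 79 ribosomal protein, 7 of 42 lysosome and autophagy, 7 of 28 transcription factor, 5 of 20 heat shock and 3 of 8 histone genes. The share of all genes at this p is not given, so these counts cannot be read against it. The intervals of all 50 oxidative phosphorylation genes and all 37 proteasome genes lay between -0.58 and 0.58, as did those of 78 of 79 ribosomal protein genes, 40 of 42 lysosome and autophagy genes and 27 of 28 progenitor and lineage transcription factors. Nearest to a call were COX5B (-0.26) and ATP5MC1 (-0.24) of the respiratory chain, PSME1 (0.17) and PSMB4 (0.17) of the proteasome, RPS12 (-0.16) and RPS15A (-0.15) of the ribosome, NEU1 (0.33) and SQSTM1 (-0.30) of lysosome and autophagy, and MYB (-0.28) and CEBPB (0.44) of the transcription factors. Of 20 heat shock chaperone genes, 17 had a difference below 0, against 4174 of all 8795 genes. The median of the 20 was -0.07, which became 0.05 without centring. HSPA4L had -0.40 (adjusted p = 0.0866) and HSP90AA1 -0.23 (adjusted p = 0.0628). Only 8 of 36 histone genes were tested, 5 of them with an interval inside these limits, with H1F0 at 0.32 and H2AFX at 0.22. The medians of the ribosomal and oxidative phosphorylation lists, -0.04 and -0.003, were above 0 without centring.

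Some genes with a large mean change over both lines had an interval of the difference between -0.58 and 0.58, a limit that does not exclude a smaller difference. Among these, those with the largest mean rise were NQO1, the NRF2 target PIR, the ER-phagy receptor gene CCPG1, TMEM154, DDX60L and the CD45 gene PTPRC. Their differences ran from -0.16 for DDX60L to 0.25 for CCPG1. Those with the largest mean fall were the myeloid gene MS4A3, RTN4R, the cystatin gene CST7, STAR, the homeobox gene IRX3 and AZU1. Here the differences ran from -0.36 for AZU1, which was called, to 0.11 for CST7. MS4A3 changed by -1.03 in NB4 and -1.11 in Kasumi-1, and its difference of 0.08 had an interval of -0.20 to 0.37.

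Of 38 genes that the study names for its mRNA-seq, 12 were tested, and 4 of these were called higher in NB4 (33.3% against 2.01% of all), namely IL1B, CDKN1A, ID2 and ANPEP. These genes were chosen by the study on these samples, so their count is not independent of the data either. It was 2 to 5 without single pairs and 1 with the random block. CEBPB, a myeloid transcription factor gene, had 0.44 ± 0.12 (adjusted p = 0.0773) and IL17RE, an interleukin-17 receptor gene, 0.41 ± 0.11 (adjusted p = 0.0838). The pattern recognition receptor genes TLR4 and TLR6 had -0.11 and 0.21, TFE3, a lysosomal transcription factor gene, 0.12, and GP1BB, a platelet glycoprotein gene, 0.01 with an interval of -0.59 to 0.61.

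Base composition and length moved with the calls. The median GC content of the longest listed transcripts was 56.8% for the higher and 56.2% for the lower genes against 48.1% for all genes tested, and the median length was 2912, 2484 and 3342 bases. After a loess correction of each sample for GC content and length, chosen after seeing the data, 200 higher and 117 lower genes were called, so the higher count was about as large and the lower one larger. The spread of the pair changes was larger in NB4, with a median SD of 0.107 against 0.0872 in Kasumi-1, and with each line weighted by its own spread 190 higher and 70 lower genes were called.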

How the data were processed

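The authors deposited 1 table of FPKM per sample, with 1 value per gene symbol. The submitters' processing notes list Trimmomatic, HISAT2, Cufflinks and HTSeq and the build hg38, without roles. The labels name a stranded mRNA library kit. Of the deposited FPKM, 632 lie above 0 and below 1e-04, so they are estimated shares and not whole reads, and the depth is unknown. In every sample, 27 symbols that had turned into dates were left out, which left 20003 genes. FPKM sums were 248207 to 310262 per sample.

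Groups were taken from the labels. For genes that averaged 1 FPKM or more in each line, log2(FPKM + 0.1) was centred on each sample's median. Limma 3.58.1 in R 4.3.3 fitted the sample number nested in line as a block and a treatment effect per line, with a mean-variance trend (residual degrees of freedom 4, prior 7.15), and tested their difference with Benjamini-Hochberg adjustment at 0.05. The pairing comes from the numbers in the labels, and no source used here says whether same-numbered control and OGP46 samples share a culture or day. The deviations of same-numbered samples correlated across genes at 0.348 to 0.741 in NB4 and 0.304 to 0.559 in Kasumi-1, and each sample correlated best with its own number. The code was tested on simulated data.

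The members and gene lists were chosen with earlier results of these data known. Named genes are the 10 called genes with the largest difference in each direction whose pair changes do not overlap, up to 4 called members of each list or else the 2 with the smallest p, genes the study names, up to 6 called genes with opposite changes, and the 6 genes in each direction with the largest mean change whose interval lay between -0.58 and 0.58. Another 23 were added after seeing the values, and a gene that the rule picks is left unreported. Alternatives were other pseudocounts, filters, scalings, moderation, weights and blocks, leaving out pairs or gene classes, a correction for GC content and length (GENCODE 29, loess span 0.3) and the subtraction of Kasumi-1 marker signal. Promoter windows are from RefSeq on GRCh38.p14.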

Additional observations from a re-analysis of the deposited data

Results flagged for a closer look

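For 69 of the named genes, the limma test of the line by treatment interaction passed at an adjusted p below 0.05, which means that the difference between NB4 and Kasumi-1 in the change with OGP46 was itself tested. The value in brackets is that difference in log2(FPKM + 0.1), NB4 minus Kasumi-1. It was above 0 for 53 genes, ALOX5AP (1.58), PIM1 (1.45), IL1B (1.43), CDKN1A (1.17), NRP1 (1.05), CD300A (1.05), ZFP36L1 (1.04), TRIB2 (1.03), ICAM1 (0.98), MMP14 (0.95), PLIN2 (0.88), RAB7B (0.87), PTGER2 (0.85), SESN2 (0.83), CARMIL2 (0.82), CDKN1C (0.82), VLDLR (0.81), DUSP6 (0.79), DDIT4 (0.77), FCER1G (0.76), ID2 (0.75), ALDOC (0.72), MYO1G (0.71), NFKB2 (0.71), S100A9 (0.69), ASNS (0.66), AIF1 (0.64), ZFP36 (0.63), DUSP4 (0.61), KLF6 (0.61), TXNIP (0.60), TGFBR2 (0.60), TNFRSF10B (0.60), GADD45A (0.57), TGFB1 (0.57), WARS (0.55), VEGFA (0.54), ITGB2 (0.53), SLC7A5 (0.52), CNN2 (0.51), FTH1 (0.50), LIMK1 (0.49), ANPEP (0.47), COTL1 (0.46), SLC2A3 (0.45), VASP (0.45), ACTG1 (0.41), ZYX (0.40), PSAT1 (0.40), GSR (0.39), FADS1 (0.36), CORO1A (0.35) and EBP (0.28).

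It was below 0 for 16 genes, CTSG (-1.30), PRTN3 (-0.97), SOWAHD (-0.93), TARP (-0.85), LOC339862 (-0.76), MMACHC (-0.72), SESN3 (-0.72), PHYH (-0.63), ISG15 (-0.62), LACTB2 (-0.61), SREBF1 (-0.58), MPO (-0.42), SCD (-0.39), AZU1 (-0.36), HK2 (-0.35) and PRSS57 (-0.32). All 69 differences kept their sign in each fit that left out 1 pair and 23 of them were called in all 6 such fits. No cause was tested for any of these differences.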

How the results depend on the processing

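The 246 calls rest on the replicate block. With no replicate block, 0 higher and 0 lower genes were called (544 at an unadjusted p below 0.05), and the adjusted p of the 69 called named genes ran from 0.168 to 0.979. A random replicate block gave 81 higher and 19 lower genes, 96 of them among the 246. Without each same-numbered pair in turn, the higher count ran from 50 to 238 and the lower from 10 to 74. The lowest of each came without Kasumi-1 pairs 2 and 1, and without NB4 pair 1 or 2 the higher count was 107 and 105. These fits have fewer samples.

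The higher count became 106 with a minimum of 0.1 FPKM, 107 with no trend, 340 with no centring, and 42 with no filter on low values, which tested 16018 genes. The lower count became 39 with no trend, 16 with no centring, 18 with no filter, 105 with array weights and 117 with the GC and length correction. With a minimum difference of 0.58 the counts were 61 and 15. At a minimum of 5 FPKM, where 5463 genes were tested, 5331 intervals lay between -0.58 and 0.58 instead of 8027. With fewer genes tested, their share was 97.6% instead of 91.3%. Under all other settings, namely pseudocounts of 1 and 0.01, TPM scaling, quantile normalization, robust estimation, weights by line, and leaving out read-through loci or genes over 16-fold apart between the controls, both counts stayed within 1.5 times the reported ones. The causes were not tested.

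Called named genes reversed in none of 1624 comparisons with another setting and lost the call in 370. Genes not called reversed in 21 of 942. With a pseudocount of 1, CST7 became -0.0315, MS4A3 -0.136 and TLR4 0.0127. GP1BB became -0.0114 at a minimum of 0.1 FPKM, -0.0235 with no filter, -0.0159 under TPM scaling and -0.0156 under quantile normalization, where TLR6 became -0.105. With no centring, STAR became 0.0238 and TLR4 0.00432. ELANE became 0.364 with the Kasumi-1 marker share taken off. Without single pairs, the lowest and highest values were -0.00854 and 0.242 for CST7, -0.338 and 0.376 for GP1BB, -0.0437 and 0.221 for MS4A3, -0.0661 and 0.117 for NQO1, -0.207 and 8.26e-05 for STAR.

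The depth of the libraries is unknown, so no counting error is given and precision rests on 3 pairs per line. The median 95% interval of a difference was 0.204 wide on each side, before adjustment for the number of genes. No difference below 0.276 in size was called and CEBPB at 0.443 was not, so differences well above 0.204 could also be missed. Of the genes tested, 402 were below 1 FPKM in at least 1 sample. The cross-signal and the GC and length settings were chosen after seeing the data.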

Other observations

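Genes of the actin cytoskeleton and of cell adhesion were seen among those called higher in NB4. They were named after their values were seen and were not tested as a group. The myosin gene MYO1G had a difference of 0.71 ± 0.09 (adjusted p = 0.00343), with a change of 0.59 in NB4 and -0.12 in Kasumi-1. VASP, which promotes filament growth, stood at 24.7, 24.0 and 25.0 FPKM in NB4 controls and 33.5, 35.1 and 38.2 FPKM with OGP46, and between 28.3 and 32.4 FPKM in all Kasumi-1 samples. Its difference was 0.45 ± 0.06 (adjusted p = 0.00637). The focal adhesion gene ZYX had 0.40, the calponin gene CNN2 0.51, the cofilin kinase gene LIMK1 0.49, the coactosin gene COTL1 0.46, the γ-actin gene ACTG1 0.41, whose reads can be shared with other actins, and the coronin gene CORO1A 0.35. Of these, MYO1G, VASP, ZYX and CNN2 were called in all 6 fits without a pair, and CORO1A in 1 of them.

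The genes TGFB1, TGFBR2, PLIN2 and TXNIP were likewise named after their values were seen and were not tested as a group. TGFB1, the gene of the ligand TGF-β1, stood at 19.2, 18.9 and 17.3 FPKM in NB4 controls and 27.8, 30.2 and 26.7 FPKM with OGP46, with no overlap, and had a difference of 0.57 ± 0.07 (adjusted p = 0.00353). TGFBR2, the gene of a receptor of this ligand, stood at 5.30, 4.13 and 4.38 FPKM and 7.59, 6.60 and 7.12 FPKM in NB4 and had 0.60 ± 0.07 (adjusted p = 0.00343). In Kasumi-1 neither change passed on its own. PLIN2, a lipid droplet coat gene, rose in both lines, by 1.23 and 0.35, and had 0.88 ± 0.11 (adjusted p = 0.00343). TXNIP, a glucose-responsive regulator of thioredoxin, changed by 0.15 in NB4 and -0.45 in Kasumi-1, with 0.60 ± 0.07 (adjusted p = 0.00343).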
